A study of Mus musculus with 6 samples.

Results

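The genes of the TGF-beta pathway described here are the ligands Tgfb1, Tgfb2 and Tgfb3, the latent-form binding protein Ltbp1, the receptors Tgfbr1, Tgfbr2 and Tgfbr3, and the signal transducers Smad2, Smad3 and Smad7. They were taken by symbol, as every probe set annotated with 1 of these genes and no other, which gave 10 genes and 25 probe sets of the 18194 genes and 45037 probe sets on the array (controls left out). They were measured in carotid arteries of mice after wire injury, an operation in which a wire passed through the artery strips its endothelium and a neointima of smooth muscle cells and matrix follows. The groups were IRF4 KO, mice with a global knockout of the transcription factor IRF4, and WT, wild-type mice. Each had 3 Affymetrix arrays, and each array held 400 ng of total RNA pooled from 3 to 5 vessels taken 14 days after the injury. The same operation and day applied to both genotypes. The labels name no allele, strain, age or sex, and no uninjured artery was analysed here. Values are the deposited log2 intensities from RMA, which corrects background, brings arrays to a common scale and sums up the probes of each set. Differences are IRF4 KO minus WT.

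TGF-beta ligands are secreted in a latent complex, in which the growth factor stays bound to its own propeptide and to a latent TGF-beta binding protein such as the product of Ltbp1, which ties it to the matrix. Once freed, the ligand joins the type II receptor (Tgfbr2) to the type I receptor (Tgfbr1), helped by the co-receptor betaglycan (Tgfbr3), and the type I receptor phosphorylates SMAD2 and SMAD3. SMAD7 is induced by the signal and shuts it down. In the arterial wall the pathway is known for driving matrix synthesis and the contractile genes of smooth muscle.

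The promoters of Tgfb1 and Tgfb2 are shown because these ligands gave changes of opposite sign, although the genotypes overlapped for Tgfb2. The promoter of Tgfb3, which changed in the same direction as Tgfb2, was not available. A link between promoter and change was not tested. Each line holds the 250 bases before a transcription start in RefSeq (GRCm38.p6), written 5′ to 3′ along the gene. Capitals mark the TATA box core TATAAA and the GC box GGGCGG, searched on both strands. The Tgfb1 stretch lies at chr7:25686752-25687001 on the plus strand, and the Tgfb2 stretch at chr1:186705990-186706239 on the minus strand.
Tgfb1: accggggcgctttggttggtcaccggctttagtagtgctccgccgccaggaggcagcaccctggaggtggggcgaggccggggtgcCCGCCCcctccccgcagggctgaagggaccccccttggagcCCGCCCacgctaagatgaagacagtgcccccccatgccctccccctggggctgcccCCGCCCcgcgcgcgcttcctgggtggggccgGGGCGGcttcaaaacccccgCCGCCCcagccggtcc
Tgfb2: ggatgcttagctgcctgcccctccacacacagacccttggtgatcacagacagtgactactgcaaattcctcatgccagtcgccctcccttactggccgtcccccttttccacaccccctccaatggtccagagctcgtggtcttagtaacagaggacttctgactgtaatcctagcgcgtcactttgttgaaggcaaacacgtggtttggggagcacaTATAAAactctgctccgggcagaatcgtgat

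The Tgfb1 stretch held 5 GC boxes and no TATA core at a GC content of 75.2%, whereas the Tgfb2 stretch held 1 TATA core and no GC box at 53.6%. Of 32851 RefSeq promoter stretches of the same length, 32.7% held a GC box and 12.4% a TATA core, and their median GC content was 52.4%. Promoters of 6 of the 10 genes were available, and those of Tgfb3, Tgfbr3, Smad2 and Smad7 were not. A GC-rich stretch with GC boxes was not particular to Tgfb1. The Smad3 stretch held 2 GC boxes and no TATA core at 69.2%, and a Tgfbr1 stretch held the same at 74.8%. The Tgfbr1 stretch at 52.8% and those of Ltbp1 and Tgfbr2 held neither motif. The interferon response element core, the letters GAAA and again GAAA with any 2 bases between, is a motif of IRF proteins found in 2.98% of all stretches, and it had 0 matches in those of Tgfb1 and Tgfb2. That count says only that these letters are not in these windows.

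Irf4, the targeted gene, read below the median gene level in both genotypes: 3.27, 3.75 and 3.70 in IRF4 KO arteries and 3.90, 3.64 and 3.38 in WT arteries on one probe set, with differences of -0.065 there and -0.088 on the other. Which part of the gene was deleted is not stated, so these values do not check the genotype labels. All 8 smooth muscle markers (Myh11, Cnn1, Lmod1, Des, Myocd, Actg2, Synpo2 and Mylk) read above 4.89, the median of all gene means on the log2 scale, and the list averaged between 9.10 and 9.89 in IRF4 KO and between 9.47 and 9.92 in WT. IRF4 KO 1 and WT 3 stood apart from the other 4 arrays. Their poly-A spike-in controls, bacterial transcripts added before labelling, averaged 5.14 on IRF4 KO 1 and 4.93 on WT 3, against 7.35 to 9.26 on the other arrays. Macrophage markers (10 of 10 measured) averaged 8.87 on IRF4 KO 1 and 7.77 on WT 3, against 4.60 to 5.51 on the others, and cartilage markers (10 of 10) 7.41 on IRF4 KO 1 and 7.36 on WT 3 against 3.59 to 4.07. Results are therefore also given within the pair IRF4 KO 1 and WT 3 and within the other 4 arrays. In pooled vessels, fewer cells of a type and less RNA per cell cannot be told apart.

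Tgfb1, which encodes TGF-beta 1, read low in all IRF4 KO arteries, while no other gene of the group separated the genotypes. Its log2 intensity was 3.88, 3.998 and 3.98 in IRF4 KO arteries, against 5.11, 5.01 and 5.13 in WT arteries. Every IRF4 KO array lay more than 1 log2 unit below every WT array, with no overlap. The mean was 3.95 ± 0.06 in IRF4 KO and 5.08 ± 0.06 in WT (SD, n = 3 each), and Tgfb1 read 2.19-fold lower in IRF4 KO arteries. The log2 difference was -1.13 (SE 0.17, 95% interval -1.52 to -0.74). With limma, which shares the estimate of spread across genes, and Benjamini-Hochberg adjustment this did not pass over all genes (adjusted p = 0.252). Of the 18194 genes, 0 (0%) had an adjusted p under 0.05. At an unadjusted p under 0.05, 1.08% were lower and 0.407% higher in IRF4 KO, and with no overlap between genotypes 3.31% were lower and 2.37% higher. Tgfb1 was singled out with this value already known, so its rank among genes is a description. Its WT mean was above the median level of genes and its IRF4 KO mean below it.

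The other Tgfb1 probe set gave nearly the same difference. Probe set 1445360_at read 3.54, 3.77 and 3.89 in IRF4 KO arteries and 4.89, 4.80 and 4.71 in WT arteries. Its log2 change was -1.07 (SE 0.18, limma adjusted p = 0.409 over 45037 probe sets), beside -1.13 on 1420653_at, and here too the genotypes did not overlap. These were the 2 probe sets among the 25 without overlap, against 5.99% of all probe sets (3.24% lower and 2.75% higher), and the 2 with an unadjusted p under 0.05, against 1.74%.

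**Figure D1:**
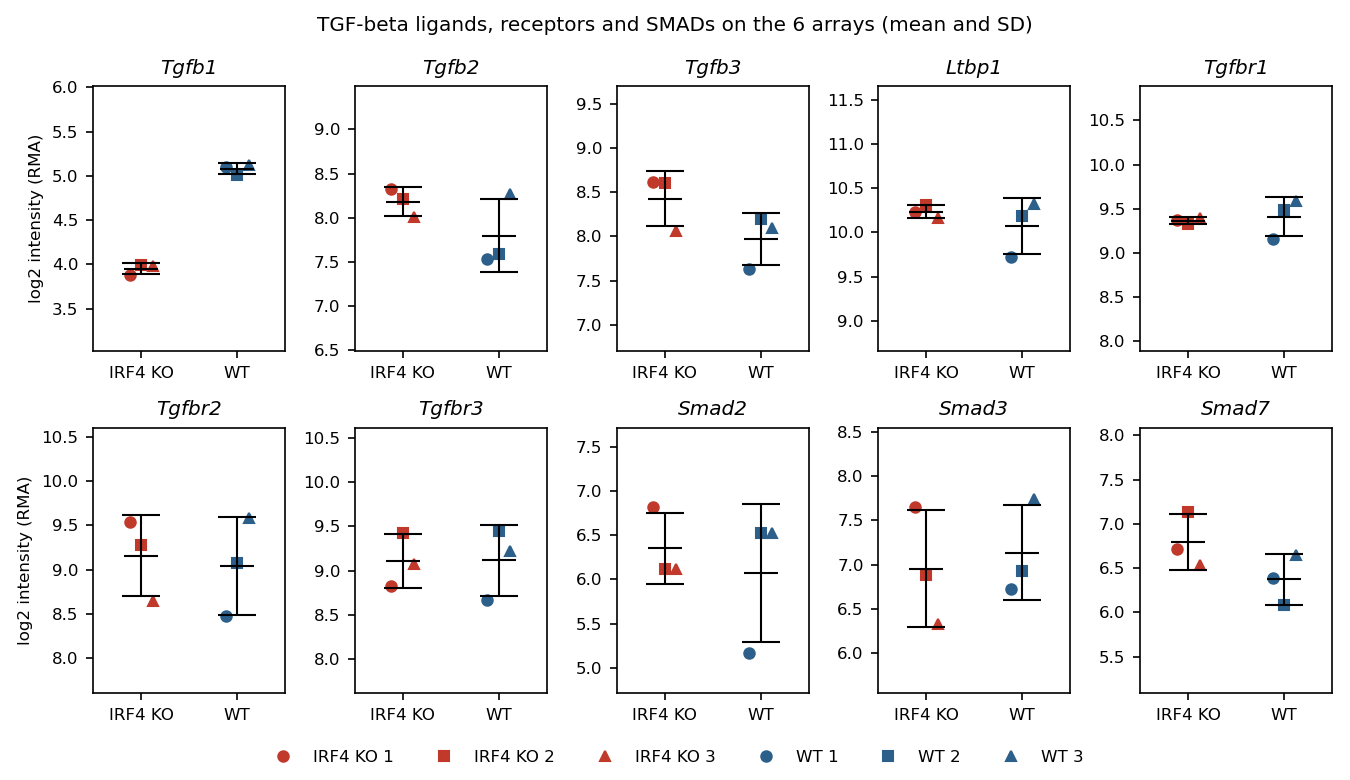
Log2 RMA intensity (vertical axis, 3 log2 units in every panel) of each gene on its brightest probe set in IRF4 KO arteries (left, red) and WT arteries (right, blue). Points are single arrays, bars the mean and SD of 3 arrays. Tgfb1 reads 3.88 to 3.998 in IRF4 KO and 5.01 to 5.13 in WT, while the genotypes overlap in the other 9 genes.

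The other ligands read higher in IRF4 KO on average, with overlap. Tgfb2, the ligand best known from heart valve and eye development, read 8.33, 8.21 and 8.01 in IRF4 KO arteries and 7.53, 7.59 and 8.27 in WT arteries. WT 3 lay within the IRF4 KO values and the other 2 WT arrays below them. The log2 change was 0.38 (SE 0.24, 95% interval -0.17 to 0.94, limma adjusted p = 0.999). Its probe sets 1423250_a_at and 1450922_a_at gave changes of 0.27 and 0.55, and 1438303_at gave -0.067. Within the pair of low spike-in arrays the difference was 0.057, and among the remaining 4 it was 0.55.

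Tgfb3, known for its part in palate fusion, has 1 probe set. It read 8.61, 8.61 and 8.06 in IRF4 KO arteries and 7.63, 8.19 and 8.09 in WT arteries, so that IRF4 KO 3 fell among the WT values. The log2 change was 0.46 (SE 0.24, 95% interval -0.10 to 1.01, limma adjusted p = 0.999), and it was 0.52 within the pair and 0.42 over the other 4 arrays. Ltbp1, the latent-form binding protein, read 10.23, 10.31 and 10.16 in IRF4 KO arteries and 9.72, 10.19 and 10.32 in WT arteries. Its genotypes overlapped, with a log2 change of 0.16 (SE 0.21, 95% interval -0.33 to 0.65) and changes of 0.066 and 0.12 on its other probe sets.

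The receptors showed no shift with genotype that exceeded the spread between arrays. Tgfbr1, the kinase that phosphorylates SMAD2 and SMAD3, read 9.37, 9.33 and 9.40 in IRF4 KO arteries and 9.16, 9.48 and 9.58 in WT arteries. The IRF4 KO values all lay inside the WT range, and the 95% interval of the change was -0.48 to 0.39 around -0.042. Tgfbr2, which binds the ligand first, read 9.54, 9.28 and 8.65 in IRF4 KO arteries and 8.48, 9.08 and 9.58 in WT arteries. Here too the IRF4 KO values lay inside the WT range, and the change of 0.11 had an interval of -0.65 to 0.88. Tgfbr3, the co-receptor betaglycan, read 8.82, 9.42 and 9.08 in IRF4 KO arteries and 8.67, 9.45 and 9.22 in WT arteries. Its change was -0.0059, with an interval of -0.61 to 0.59. These intervals reach to at least 0.39 in either direction, so the values do not show that the receptors were unaltered. On the dimmer probe sets the changes were 0.0029 and 0.12 for Tgfbr1 and -0.025 and 0.17 for Tgfbr2. For Tgfbr3 the change on 1425620_at was 0.45 (95% interval -0.13 to 1.03), with overlap between genotypes.

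Among the SMADs, Smad7 gave the widest difference. This inhibitory SMAD read 6.71, 7.14 and 6.53 in IRF4 KO arteries and 6.39, 6.08 and 6.65 in WT arteries. WT 3 lay between IRF4 KO 3 and IRF4 KO 1, and the log2 change of 0.42 (SE 0.24, 95% interval -0.13 to 0.97) did not pass (limma adjusted p = 0.999). It was 0.061 within the low spike-in pair, 0.60 among the remaining 4 arrays, and 0.22 on its dimmer probe set 1443771_x_at. Smad2, a transducer of the signal, read 6.82, 6.12 and 6.12 in IRF4 KO arteries and 5.17, 6.52 and 6.52 in WT arteries. WT 1 alone lay below the rest, and without it the change of 0.28 turned to -0.17. On probe set 1442062_at the change was -0.16.

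Smad3, the other transducer, followed the arrays that stood apart. It read 7.65, 6.88 and 6.33 in IRF4 KO arteries and 6.72, 6.93 and 7.74 in WT arteries, with IRF4 KO 1 and WT 3 above all others in their genotype. The change was -0.18 (SE 0.38, 95% interval -1.05 to 0.70). Its 2 other probe sets were dim, with means of at most 3.16 in either genotype, and 1450472_s_at held the identical value of 2.60 in IRF4 KO 1 and IRF4 KO 2. Both gave a change of 0.16, opposite in sign to that on the brightest probe set.

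**Figure D2:**
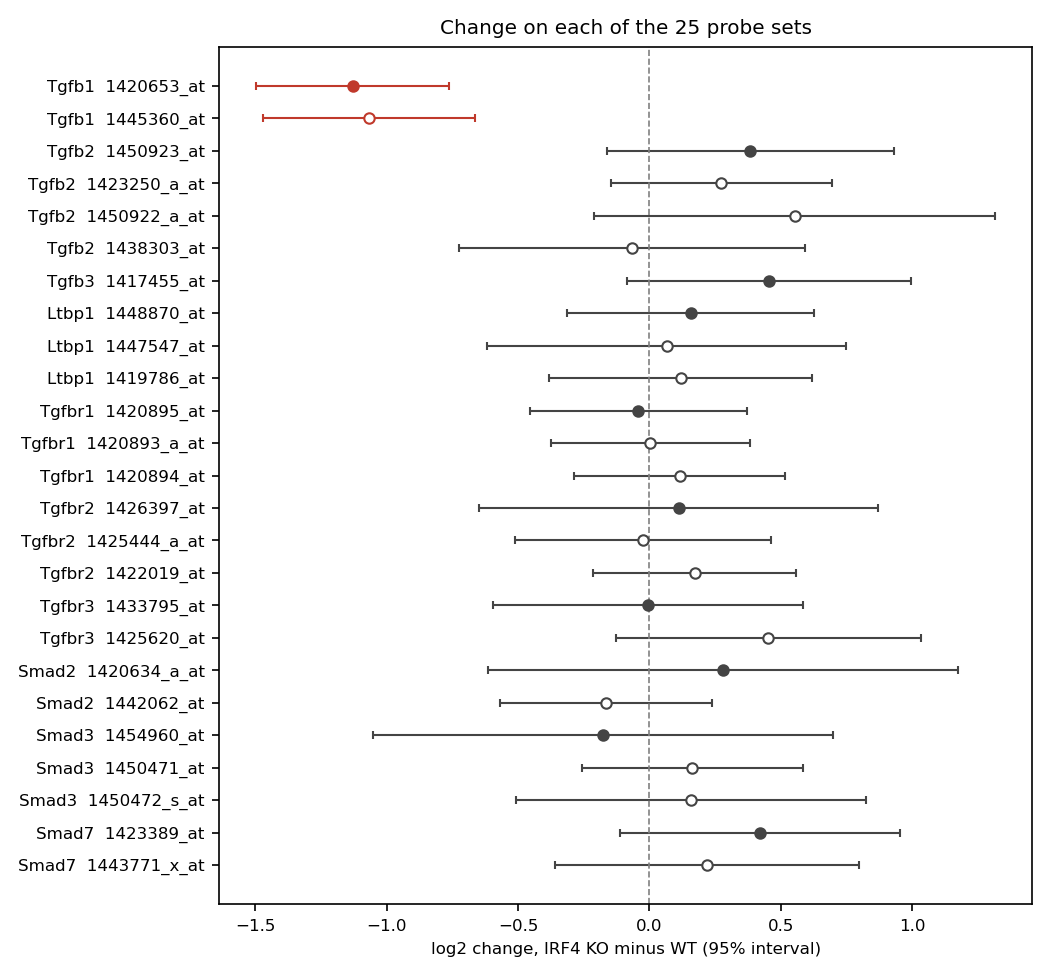
Log2 change, IRF4 KO minus WT (horizontal axis), with the 95% limma interval, on each of the 25 probe sets (rows, grouped by gene). Filled points are the probe set used for the gene, and red marks Tgfb1. Both Tgfb1 intervals end below -0.6, while all 23 others include 0 and lie between -0.18 and 0.55.

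Across the 23 probe sets of the other 9 genes, 17 read higher and 6 lower in IRF4 KO. Of these 9 genes 6 read higher and 3 lower, with a median change of 0.16, beside -0.0015 over all genes. That median was -0.17 without WT 1 (3 of 9 higher), 0.36 without IRF4 KO 3 (8 of 9) and 0.38 without WT 3 (9 of 9). Of the 25 probe sets 8 lay below the median of all probe set means (3.998), namely 2 of Tgfbr1, 2 of Tgfbr2, 1 of Tgfbr3, 2 of Smad3 and 1 of Smad7.

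The change of Tgfb1 was then set against that of each other gene, as the difference Tgfb1 minus the other gene on each array. The change of Tgfb1 was the lower one in all 9 comparisons, with differences from -0.95 (Smad3) to -1.59 (Tgfb3) log2 units. In 8 of the 9 every IRF4 KO array lay below every WT array. Against Tgfb3 the difference was -4.73, -4.61 and -4.09 in IRF4 KO and -2.53, -3.18 and -2.96 in WT. Against Smad3 it was -3.78, -2.89 and -2.35 in IRF4 KO and -1.62, -1.92 and -2.61 in WT, with overlap. These differences are a description with no test, because Tgfb1 was singled out with its values known and all 9 comparisons share them. An exact permutation test of 3 arrays against 3 could in any case give no p below 0.1.

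On its brightest probe set Tgfb1 also differed from the other 9 genes in its spread. The SD within genotypes, pooled over both, was 0.063 for Tgfb1, 0.16 for Tgfbr1 and up to 0.62 for Smad2, beside a median of 0.287 over all genes. Of all genes 142 (0.780%) had an SD at or below that of Tgfb1, and 29 (0.159%) had a larger absolute change. No gene had both, with each gene read on its brightest probe set. On 1445360_at, the other Tgfb1 probe set, the SD was 0.18 in IRF4 KO and 0.088 in WT. That was near the 0.18 in IRF4 KO and 0.083 in WT of the Smad2 probe set 1442062_at. The SD of 0.063 thus belongs to 1420653_at alone. On 1445360_at the SD in each genotype was larger, yet still below 0.287, the median over all genes. Tgfb1 belonged to a small set of genes that stood apart by size of change and narrow spread, counted after the values were seen. Among genes with an SD below the median, 316 had an absolute change of 0.4 to 0.6, 26 of 0.6 to 0.8, 2 of 0.8 to 1 and 21 of 1 to 1.2. The numbers fell off up to a change of 1 and were higher past it. With a change of at least 1 there were 9 lower genes, Tgfb1 among them, and 15 higher genes with an SD below the median. One of the 15 was the smooth muscle actin gene Acta2, named after its values were seen, with a log2 change of 1.14 and an SD within genotypes of 0.09. Of the 8 smooth muscle markers, which do not include Acta2, 1 read higher and 7 lower. Why these genes stand apart was not tested. Scanner images were not used here, and the -1.13 of Tgfb1 is a value of the deposited table.

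**Figure D3:**
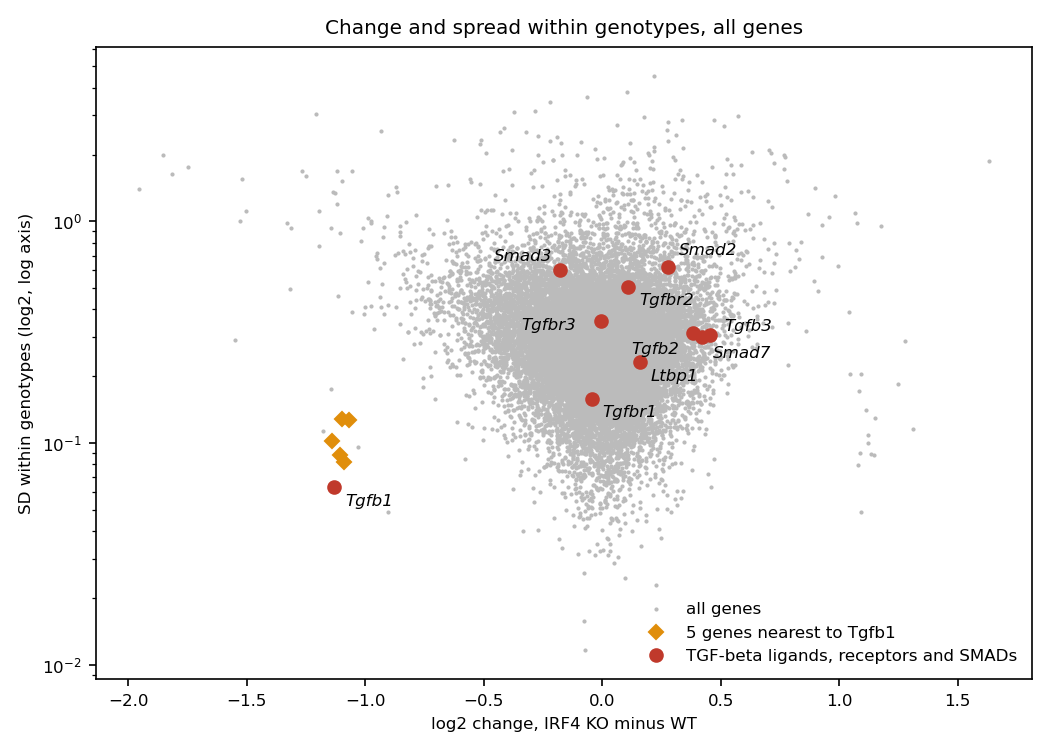
Log2 change, IRF4 KO minus WT (horizontal), against the SD within genotypes (vertical, log axis) for all 18194 genes (grey), the 10 TGF-beta genes (red) and the 5 genes nearest to Tgfb1 (orange). Tgfb1 sits at -1.13 and 0.063, apart from the cloud that holds the other 9, and beside the 5 nearest genes.

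The genes with the profile most like Tgfb1 were Rab4a, Pparg, Retnla, Klf4 and Arg1. Likeness was measured over the 6 arrays as the root mean square distance between values centred on each gene's own mean. It was 0.0903 log2 units for Rab4a, an endosomal GTPase gene, 0.0906 for Pparg, the nuclear receptor of fat cell differentiation, and 0.0932 for Retnla, a secreted product of alternatively activated macrophages. It was 0.102 for the transcription factor gene Klf4 and 0.106 for the arginase gene Arg1. The median over 16439 ranked genes was 0.623. Their log2 changes were -1.10, -1.09, -1.07, -1.14 and -1.11, in the same order. The nearest of the other TGF-beta genes was Tgfbr1, at rank 4697 with a distance of 0.563. Retnla read 2.97, 2.92 and 2.99 in IRF4 KO arteries and 3.99, 3.87 and 4.22 in WT arteries, and Arg1 2.30, 2.21 and 2.10 in IRF4 KO and 3.23, 3.33 and 3.37 in WT. Pparg, Retnla and Arg1 lay below the median gene level in both genotypes, with Retnla and Arg1 near the floor of the array in IRF4 KO. The 2 low spike-in arrays minus the other 4 gave 0.15 for Retnla and 0.12 for Arg1. Since the measure follows a gene chosen for its difference, the closeness of these genes is a description.

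Cell type markers were read beside Tgfb1, since many cell types make it. Macrophage markers averaged 4.60 to 8.87 in IRF4 KO and 4.93 to 7.77 in WT, and 0 of 10 had an unadjusted p under 0.05. Platelet markers (5 of 6 measured, Pf4 and Itga2b among them) averaged 5.02 to 5.13 in IRF4 KO and 4.54 to 5.45 in WT. The Tgfb1 difference was -1.25 within the low spike-in pair and -1.07 among the remaining 4 arrays. The 2 low spike-in arrays minus the other 4 gave -0.021 for Tgfb1. The part of macrophage or platelet RNA in the Tgfb1 values was not tested.

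Several of the other genes moved with the arrays that stood apart. Tgfb2, Tgfbr2 and Smad3 read higher on IRF4 KO 1 and WT 3 than on each of the other 4 arrays, as did 17.4% of all genes. The 2 arrays exceeded the others by 0.46 for Tgfb2, 0.69 for Tgfbr2 and 0.98 for Smad3 on average. Fibroblast markers (7 of 7) averaged 8.78 on IRF4 KO 1, 8.36 on WT 3 and 6.94 to 7.14 on the others, beside the macrophage and cartilage levels given above. The part of these cell types and of the spike-in level in the values of Tgfb2, Tgfbr2 and Smad3 was not tested.

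**Figure D4:**
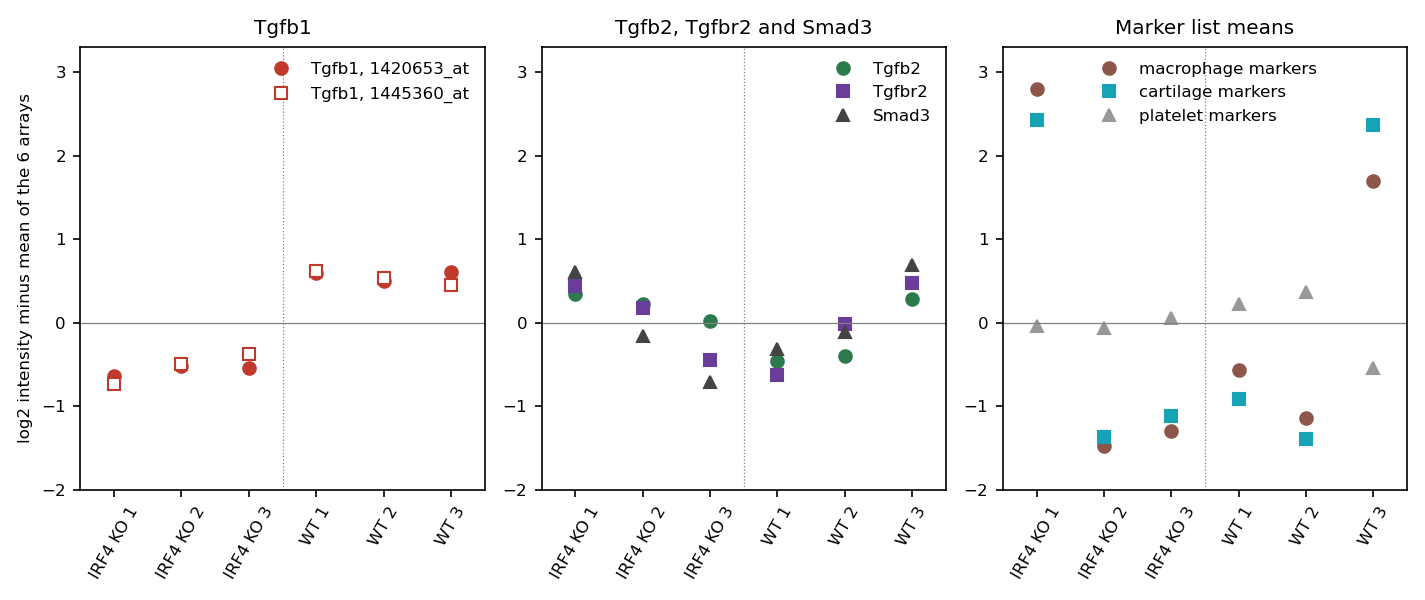
Log2 intensity minus the mean of the 6 arrays (vertical) by array (horizontal, IRF4 KO left of WT) for both Tgfb1 probe sets, for Tgfb2, Tgfbr2 and Smad3, and for the means of 3 marker lists. Tgfb1 splits by genotype on both probe sets, whereas Tgfb2, Tgfbr2, Smad3 and the macrophage and cartilage markers are highest on IRF4 KO 1 and WT 3.

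The averages of marker lists of other cells that the vessels could hold overlapped between the genotypes. Endothelial markers (7 of 7) averaged 6.81 to 7.33 in IRF4 KO and 6.25 to 7.09 in WT, with 7 of 7 higher and 0 called. T cell markers (5 of 6) averaged 4.24 to 4.67 in IRF4 KO and 4.11 to 4.48 in WT, and B cell markers (4 of 5) 3.45 to 3.67 in IRF4 KO and 3.31 to 3.68 in WT. Adipocyte markers (4 of 5) averaged 4.16 to 4.69 in IRF4 KO and 4.45 to 4.59 in WT, and skeletal muscle markers (5 of 5) 3.71 to 3.84 in IRF4 KO and 3.43 to 3.76 in WT. Of the last list, Acta1 (0.48) and Myh4 (0.25) read higher in IRF4 KO without overlap, as did 2.37% of all genes. Above the median gene level were 2 of 5 T cell, 0 of 4 B cell, 1 of 4 adipocyte and 2 of 5 skeletal muscle markers. Lists of mostly dim markers cannot show whether these cells differed.

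Genes around these 10 in the pathway were read from 6 lists of 63 measured genes, and 0 of the 63 passed over all genes. Without overlap between genotypes were 5 of them (7.94%, against 5.68% of all genes): Itgb6, Tab1 and Bgn were higher, and Bambi and Smad9 lower, in IRF4 KO. At an unadjusted p under 0.05 there was 1 gene, Tab1, beside 1.49% of all genes. Tab1, an activator of the kinase TAK1 in the SMAD-independent arm, read 4.65, 4.61 and 4.71 in IRF4 KO arteries and 4.20, 4.41 and 3.998 in WT arteries. It lay below the median gene level, had a log2 change of 0.45 (SE 0.19, limma adjusted p = 0.999), and differed by -0.071 on its other probe set. Smad9, a SMAD of the BMP branch named after its values were seen, averaged 2.71 in IRF4 KO and 3.01 in WT, below the median gene level.

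Genes of the latent complex and its activation read higher in 7 of 10 measured cases, with a median change of 0.27. The integrin subunit gene Itgb5 averaged 10.63 ± 0.30 in IRF4 KO and 10.20 ± 0.20 in WT, a change of 0.43, and gave 0.44, 0.030 and -0.12 on its other probe sets. Itgb6, the partner of integrin alpha v that frees TGF-beta in epithelia, averaged 2.85 ± 0.27 in IRF4 KO and 2.54 ± 0.06 in WT, near the floor of the array. Thrombospondin Thbs1, an activator of the latent form, averaged 8.06 ± 1.74 in IRF4 KO and 6.42 ± 1.99 in WT on this probe set, and differed by 0.076 on the other. The list's median moved with every array left out: it was -0.15 without IRF4 KO 1, 0.41 without IRF4 KO 2, 0.44 without IRF4 KO 3, 0.095 without WT 1, -0.076 without WT 2 and 0.60 without WT 3. Fbn1 and Lrrc32 were not analysed here.

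Other receptors and SMADs went both ways. Bambi, a pseudoreceptor that dampens TGF-beta signals, read 7.49, 7.30 and 7.44 in IRF4 KO arteries and 7.55, 7.91 and 7.90 in WT arteries. The gap between genotypes was narrow, and the log2 change of -0.38 (SE 0.19) had a limma adjusted p of 0.999. Of 9 other receptors and co-receptors 6 read higher, with a median of 0.088. Endoglin (Eng), a co-receptor of endothelium, averaged 7.19 ± 0.26 in IRF4 KO and 6.98 ± 0.24 in WT, and Acvr1, a type I receptor, 8.11 ± 0.45 in IRF4 KO and 7.76 ± 0.65 in WT. Of 15 other SMADs and partners 7 read higher (median -0.025). Smad1, a BMP-branch SMAD, had a change of -0.46 on its brightest probe set and of -0.19 and 0.37 on the others. Ep300, a coactivator, had a change of -0.38 on its 1 probe set. Tgif2, a corepressor, had one of 0.42, and of -0.035 on its other probe set.

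The SMAD-independent arm read higher in 3 of 8 genes (median -0.13), with Rhoa, a GTPase of the cytoskeleton, at 0.30 and at 0.50 and -0.060 on its other probe sets. The p38 kinase gene Mapk14 was at -0.31 on its brightest probe set, whereas its 5 other probe sets gave 0.063 to 0.21. In the list of inhibitors of the wider family, 4 of 7 read higher (median 0.0045). Nog, a BMP antagonist, had a change of -0.26, and Fstl3, an activin-binding protein, one of 0.16. The Nog means of 2.20 in IRF4 KO and 2.46 in WT were near the floor of the array. Tgfb1i1, placed in that list although its product is an intracellular focal adhesion protein, had a change of -0.16.

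Genes that TGF-beta commonly induces read higher in 14 of 17 measured cases, with a median change of 0.26, beside 9048 of 18194 genes higher overall. None passed over all genes and 0 had an unadjusted p under 0.05. The proteoglycan gene Bgn read 13.28, 13.23 and 13.23 in IRF4 KO arteries and 12.66, 13.07 and 13.21 in WT arteries, and WT 3 lay just below the lowest IRF4 KO value. The log2 change of Bgn was 0.27 (SE 0.20), with 0.18 and 0.29 on its other probe sets. Postn, a matricellular protein gene, averaged 12.15 ± 0.13 in IRF4 KO and 11.89 ± 0.24 in WT. Pmepa1, which encodes an inhibitor of SMAD activation, averaged 9.05 ± 0.10 in IRF4 KO and 8.74 ± 0.42 in WT, with changes of 0.25 and 0.76 on its other probe sets.

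The median of the induced genes depended on single arrays. Their median change was 0.067 without IRF4 KO 1 and also without WT 1, and 0.079 without WT 2, with 10, 11 and 10 of 17 higher. It was 0.28 without IRF4 KO 2, 0.28 without IRF4 KO 3 and 0.38 without WT 3, with 14, 15 and 14 of 17 higher. The median was 0.074 within the low spike-in pair (13 of 17 higher) and 0.26 among the remaining 4 arrays (15 of 17). On IRF4 KO 1 and WT 3 themselves, 14 of the 17 read higher on average than on the other arrays, by a median of 0.74. The part of macrophage, cartilage and fibroblast RNA in these values was not tested.

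**Figure D5:**
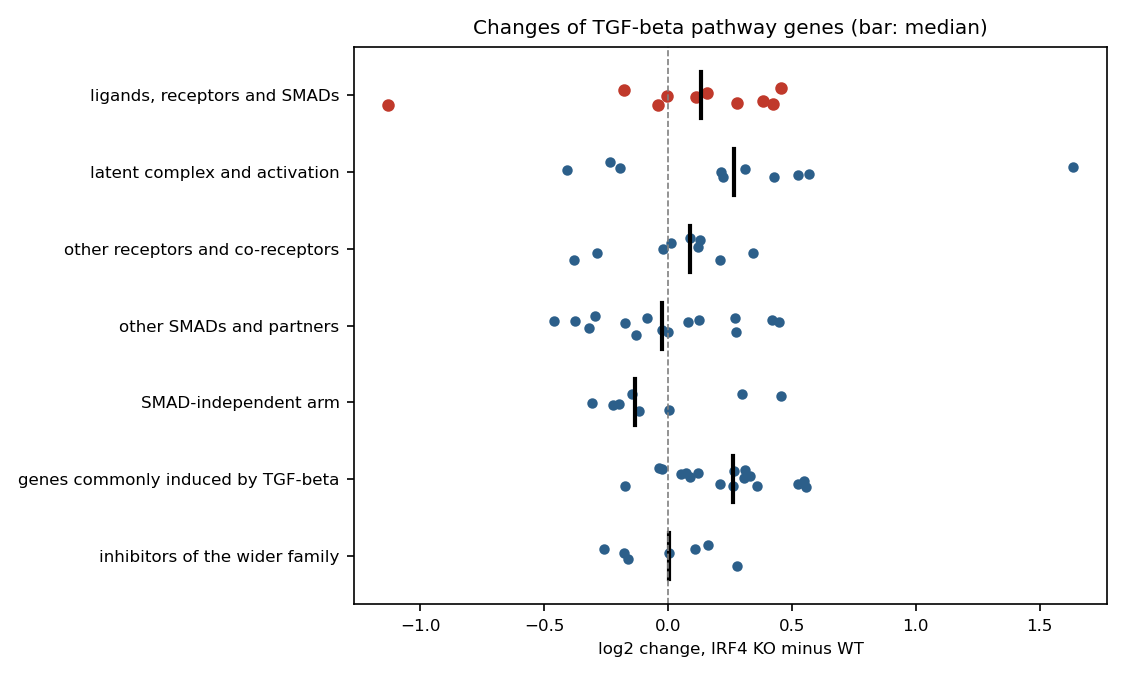
Log2 change, IRF4 KO minus WT (horizontal), of each gene (points) in the 10 TGF-beta genes (red) and in 6 lists of other pathway genes (blue), with black bars at the medians. Tgfb1 at -1.13 lies below every other point, and the list medians lie between -0.13 and 0.27.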

How the data were processed

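The deposited table holds RMA intensities on the log2 scale for 6 arrays. The submitters' processing notes name RMA and Affymetrix Expression Console without version or setting. The number of arrays limits the precision. Gene names came from GEO's annotation of the array (34958 of 45101 probe sets had 1 symbol, 932 several, 9211 none), and 34754 matched RefSeq by Entrez number. For each of 18194 genes the brightest probe set on average was used. The genotypes were compared in limma 3.58.1 in R 4.3.3 (lmFit, eBayes, no covariate, two-sided, Benjamini-Hochberg under 0.05 over all genes, and again over 45037 probe sets). Simulated data were used to test the fit. No filter on dim genes was applied. The replicates are biological per the labels.

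Genes, lists and naming rule were chosen with earlier results of these data known. The rule named all 10 genes, up to 3 genes per list by smallest p, and the 5 genes nearest to Tgfb1 (Gm, LOC and Rik symbols left out). Alternatives were a replicate block, 2 normalizations, the mean of all probe sets, a filter on dim genes, a robust trend, array weights, the spike-in level as a block, and arrays left out.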

Additional observations from a re-analysis of the deposited data

How the results depend on the processing

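Tgfb1 stayed lower in IRF4 KO under all 15 alternatives, with changes between -1.16 and -1.04, and its limma adjusted p stayed above 0.05 except with array weights (0.00178). It was 0.0904 with the spike-in block and 0.0919 with the mean of all probe sets. With array weights 68 genes passed over all genes and 69 over all probe sets. Among them were 2 of the 10 genes, Tgfb1 at -1.04 and Smad7 at 0.94 (adjusted p = 0.0409), and 2 of the 25 probe sets, both of Tgfb1 (1445360_at at -1.03). That fit stopped before it reached its convergence tolerance. It gave IRF4 KO 2 a weight of 26.7 and the other arrays 0.279 to 2.57. The IRF4 KO side so rests on IRF4 KO 2, and the WT side mostly on WT 2 (2.57, against 0.360 for WT 1 and 0.437 for WT 3). Without both low spike-in arrays 5 genes and 6 probe sets passed, 0 of them of the 10 genes. Leaving out 1 array gave 0 genes and 0 to 4 probe sets (4 without IRF4 KO 1).

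Deviations from the group mean correlated between same-numbered arrays with r = -0.51, 0.32 and -0.59 for numbers 1 to 3. The highest r were those of IRF4 KO 1 with WT 3 (0.65) and IRF4 KO 3 with WT 1 (0.57). Deviations from a mean of 3 arrays are tied to each other, so these r cannot show whether the numbers mark pairs. With a replicate block 0 genes passed, as without it (128 genes at an unadjusted p under 0.05, against 271), and Tgfb1 changed by -1.13. All 10 genes passed the filter on dim genes, Tgfb1 only through its WT mean.

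Several changes turned sign, among them Smad1 (-0.46 as reported), Ep300 (-0.38), Mapk14 (-0.31), Rhoa (0.30) and Smad2 (0.28), and the cause was not tested. Array weights gave Tgfbr3 0.074, Smad2 -0.25, Smad1 0.016, Ep300 0.054, Rhoa -0.064, and 0.077, -0.069 and -0.16 for 1438303_at, 1420893_a_at and 1450472_s_at. Without both low spike-in arrays Tgfbr1 was 0.042, Tgfbr3 0.19, 1438303_at 0.19 and 1420893_a_at -0.071. The mean of all probe sets gave Tgfbr1 0.026, Tgfbr3 0.22, Smad3 0.049 and Mapk14 0.055. Quantile normalization gave Tgfbr3 0.018, and median subtraction 1420893_a_at -0.032. With 1 array left out, the ranges were -0.022 to 0.28 for Ltbp1, -0.17 to 0.046 for Tgfbr1, -0.17 to 0.38 for Tgfbr2, -0.23 to 0.16 for Tgfbr3, -0.17 to 0.51 for Smad2, -0.53 to 0.14 for Smad3 and -0.49 to 0.0098 for Mapk14. They were -0.33 to 0.23 for 1438303_at, -0.21 to 0.30 for 1447547_at, -0.059 to 0.24 for 1419786_at, -0.068 to 0.051 for 1420893_a_at, -0.17 to 0.14 for 1425444_a_at and -0.19 to 0.33 for 1450472_s_at.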
